A study of Mus musculus with 18 samples.

Results

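The genes described here are those of the major histocompatibility complex (MHC) class I pathway in mouse lung. They are the class I heavy chains H2-D1, H2-K1, H2-Q5 and H2-T23, the class I light chain B2m, the peptide transporter subunits Tap1 and Tap2, the peptide editor Tapbp (tapasin), and the immunoproteasome subunits Psmb8 and Psmb9. A probe set was taken where the platform annotation named 1 of these 10 genes and no other. That gave 27 probe sets of 9 genes, out of 18193 genes that have such a probe set on the array. Both H2-T23 probe sets are annotated to a pseudogene as well, so that gene has no value here, and 5 probe sets naming a member together with other genes were left out. Of the 27, 22 passed the filter on dim probe sets: 8 of H2-D1, 4 of H2-K1, 2 each of H2-Q5, B2m and Tapbp, and 1 each of Tap1, Tap2, Psmb8 and Psmb9. The 5 that did not pass were 1 probe set of H2-D1, 3 of Tap1 and 1 of Psmb8, whose group mean signals lay between 0.433 and 22.5. The names of 11 of the 13 H2-D1 and H2-K1 probe sets end in _x_at, which marks probes that also match other transcripts.

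Total RNA of the right lung was measured in 18 arrays of 6 groups with 3 arrays each, namely irradiated and untreated (control) mice of the inbred strains C57BL6/J, C3H/HeJ and A/J. Irradiated mice received 18 Gy of caesium gamma rays to the whole thorax at 8 weeks of age, with lead over the rest of the body that left 3% of the beam, and were killed once moribund. That came at an age of 28 to 30 weeks in C57BL6/J, 20 to 22 weeks in C3H/HeJ and 30 to 32 weeks in A/J, which is 20 to 22, 12 to 14 and 22 to 24 weeks after exposure. Controls of every strain were 15 to 26 weeks old. Time since exposure and moribund state go together with irradiation in each strain, as does age in C57BL6/J and A/J, and they cannot be told apart. Time since exposure and age at death also differed between strains, so they cannot be told apart from strain where strains' effects are compared.

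Class I molecules carry short peptides from proteins made inside the cell to its surface, where CD8 T cells and natural killer cells read them. The proteasome cuts the peptides, and interferon gamma replaces some of its catalytic subunits by those of the immunoproteasome. Tap1 and Tap2 pump peptides into the endoplasmic reticulum, where tapasin holds empty class I molecules at the transporter until a peptide binds. In lung, endothelial cells, alveolar epithelium and leukocytes all carry class I molecules. The heavy chain genes are among the most variable of the mouse genome, and inbred strains differ in haplotype. C57BL6/J carries haplotype b and C3H/HeJ haplotype k, while A/J carries a recombinant with k alleles at the H2-K end and d alleles at the H2-D end. Probes were designed on some alleles and not on others. A lower signal of a heavy chain probe set in 1 strain can thus stand for less RNA or for bases that the probes match less well. At an _x_at probe set it can also come from another transcript that the probes match. These cannot be told apart with the values used here.

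In the GRCm38.p6 annotation, B2m is on chromosome 2 and the other members lie on chromosome 17. Along chromosome 17 they are Tapbp at chr17:33919478-33929290, H2-K1 at chr17:33996012-34000619, Psmb9 at chr17:34182030-34187330, Tap1 at chr17:34187556-34197225, Psmb8 at chr17:34198195-34201454, Tap2 at chr17:34204479-34216321, H2-D1 at chr17:35263094-35267497, H2-Q5 at chr17:35394099-35395630 and H2-T23 at chr17:36029977-36032701. B2m lies at chr2:122147687-122153082. Class I promoters are known for an NF-kappaB site, an interferon-stimulated response element and a module that the transactivator NLRC5 uses. The sequences below, from RefSeq, show these elements before H2-K1, H2-D1 and B2m, and the interval that Psmb9 and Tap1 share.

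Capitals mark matches, on either strand, to GGGNNTTNC (NF-kappaB-like), AANNGAAA (the core of an interferon-stimulated response element) and TGACG (the core of the X2 box of the NLRC5 module). H2-K1 is shown on its own strand, chr17:34000359-34000468, at -121 to -12 from an annotated start. Its gene record reaches past this stretch, to base 34000619. H2-D1 is shown at chr17:35262913-35263022, -181 to -72 from its start. B2m is shown at chr2:122147540-122147623, -147 to -64 from its start. The whole interval between the starts of Psmb9 and Tap1 is chr17:34187331-34187555, shown on the strand of Tap1.
H2-K1: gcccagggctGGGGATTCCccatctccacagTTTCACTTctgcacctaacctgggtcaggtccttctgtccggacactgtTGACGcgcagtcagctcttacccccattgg
H2-D1: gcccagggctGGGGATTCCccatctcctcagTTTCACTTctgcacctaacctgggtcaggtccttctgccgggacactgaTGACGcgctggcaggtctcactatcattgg
B2m: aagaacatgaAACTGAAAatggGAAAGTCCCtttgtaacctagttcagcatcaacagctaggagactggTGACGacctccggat
Tap1-Psmb9 interval: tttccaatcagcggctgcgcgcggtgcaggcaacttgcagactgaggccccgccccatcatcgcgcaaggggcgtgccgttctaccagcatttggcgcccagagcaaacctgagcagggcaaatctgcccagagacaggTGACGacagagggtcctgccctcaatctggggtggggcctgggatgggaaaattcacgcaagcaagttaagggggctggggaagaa
The H2-K1 and H2-D1 stretches are identical at 99 of 110 bases (90%), with all 3 motifs at the same places. B2m holds the same 3 motifs, with the interferon core before the NF-kappaB-like match. The 225-base interval holds 1 TGACG match and neither of the other motifs.

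Promoters of 8 members were in the table used, those of Tap2 and H2-Q5 were not. Within 250 bases before a start, GGGNNTTNC (or GNAANNCCC on the other strand) was found at H2-D1, H2-K1 and B2m, against 13% of 32851 annotated mouse starts. AANNGAAA (or TTTCNNTT) was found at those 3 and at H2-T23, against 21.3% of starts. TGACG (or CGTCA) was found at H2-D1, H2-K1, B2m, Tap1 and Psmb9, the last 2 through the match they share, against 17.8% of starts. CCAAT (or ATTGG), which is not capitalised above, was found at 7 of the 8 members, against 33.8% of starts. The motifs share no letters with one another in the stretches shown. These matches describe letters, not binding.

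Array brightness differed, with a trimmed mean signal of 46.5 to 176 across the 18 arrays, and all tests therefore used quantile-normalized log2(signal + 7) values. The correlation between arrays of a group was 0.946 to 0.983. In A/J, actin signal at the 5' end relative to the 3' end, which falls where RNA is broken or copied short, was 0.413 to 0.551 in irradiated arrays, against 0.730 to 0.742 in control arrays. The other 4 groups lay between 0.677 and 0.766, so in A/J this measure and irradiation cannot be told apart. The same ratio of GAPDH signal was 0.294, 0.876 and 1.03 in A/J irradiated 1, 2 and 3, against 1.06 to 1.295 in all other arrays. A/J irradiated 1 thus stood apart from its mates, and it was also the brightest array (176). Squamous keratin signal marked 3 arrays, A/J irradiated 3 and C57BL6/J control 1 and 3. Fits without these arrays keep C57BL6/J control 2 alone in its group, so their differences from that group rest on that array.

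The array labelled C3H/HeJ irradiated 3 went against its label at the class I heavy chains. At 7 of the 22 probe sets it differed from its 2 group mates by over 2 on the log2 scale, at 6 of H2-D1 and 1 of H2-K1. H2-D1 probe set 1425545_x_at had a signal of 3499.0 in this array, against 145.7 and 121.4 in its mates. The A/J irradiated arrays had 4785.3, 4126.2 and 3128.8 there, though these deposited signals are not scaled for array brightness. On the normalized log2 scale the array was at 11.18, below the A/J irradiated range of 11.30 to 11.63. The mean of its mates was 7.12. H2-D1 1450170_x_at, bright in C3H/HeJ alone, was nevertheless bright in it, at 2679.6 against 2594.7 and 1950.5 in its mates. The same array thus had high signal for both the probe sets that mark A/J and the one that marks C3H/HeJ. Members left aside, 24 probe sets of the array differed by more than 3 (log2) between C3H/HeJ and A/J controls, and 8 of these lay past halfway toward A/J in it, against 1 and 2 in its mates. Of the 10 brighter in A/J 7 did, among them Psmd6, Lin7c, Adamts9, Nptx1 and Efhd2 and 1 that the annotation gives to H2-Q5 and H2-K1 together, and of the 14 brighter in C3H/HeJ 1 did. Where leaving this array out changed a member's call, or moved a printed difference by over 1.5 times, the value without it is given as well.

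Between untreated strains, the largest differences were those of heavy chain probe sets, though not every heavy chain probe set differed in every pair. Probe sets of the same gene put the strains in different orders. H2-D1 probe set 1425614_x_at had control signals of 4.0, 6.7 and 6.6 in C57BL6/J, 20.7, 31.1 and 31.0 in C3H/HeJ, and 3078.4, 3057.5 and 2841.0 in A/J. Every A/J control array lay far above every control array of the other strains. The log2 difference was -7.92 ± 0.83 for C57BL6/J minus A/J (SE, limma adjusted p = 9.17e-06) and -6.20 ± 0.83 for C3H/HeJ minus A/J (adjusted p = 0.000255), and without C3H/HeJ irradiated 3 these were -7.90 ± 0.14 and -6.20 ± 0.14. H2-D1 1427651_x_at and 1452544_x_at had the same pattern, with C57BL6/J minus A/J differences of -7.80 ± 0.90 and -8.05 ± 0.82. The C57BL6/J signals of 1425614_x_at lay below the added 7, so the size of its difference depends on that number. Over all settings, the one above included, the C57BL6/J minus A/J difference was -8.82 to -6.38 for 1425614_x_at, -8.97 to -6.23 for 1427651_x_at and -9.42 to -6.37 for 1452544_x_at, and it passed in each of the 31. Without C3H/HeJ irradiated 3, all 3 were also lower in C57BL6/J than in C3H/HeJ, by -1.70 ± 0.14, -1.48 ± 0.32 and -2.09 ± 0.32, and with it none of these 3 differences passed.

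A second pattern was high signal in C57BL6/J and A/J with low signal in C3H/HeJ. H2-D1 1425545_x_at had control signals of 2652.4, 3349.0 and 3134.2 in C57BL6/J, 25.6, 126.1 and 155.5 in C3H/HeJ, and 3441.8, 3558.9 and 3185.1 in A/J. C57BL6/J exceeded C3H/HeJ by 4.81 ± 0.75 (adjusted p = 0.000505), and C3H/HeJ minus A/J was -4.91 ± 0.75 (adjusted p = 0.000789). With C3H/HeJ irradiated 3 left out these were 4.81 ± 0.32 and -4.92 ± 0.32. H2-D1 1426324_at, 1451683_x_at and 1451784_x_at shared this order, and the C57BL6/J minus A/J differences of all 4 lay between -0.44 and -0.11 and did not pass. So did H2-K1 1451931_x_at, with C57BL6/J minus C3H/HeJ at 4.84 ± 0.68 and C3H/HeJ minus A/J at -5.05 ± 0.68, and H2-Q5 1430802_at, at 2.95 ± 0.26 and -3.08 ± 0.26. The other H2-K1 probe sets were at -1.26 (1427746_x_at), -0.86 (1450534_x_at) and -0.50 (1425336_x_at) in C3H/HeJ minus A/J. Which transcript 1451931_x_at reads was not tested. The C3H/HeJ control signals of H2-Q5 1430802_at were only 1.0 to 2.2, below the added 7, and over the 32 settings its differences ran from 1.45 to 4.57 and from -4.72 to -1.55, passing in each. H2-D1 1450170_x_at was the reverse, with control signals of 28.6, 97.1 and 48.3 in C57BL6/J, 1081.5, 1866.2 and 1867.1 in C3H/HeJ, and 38.9, 88.4 and 76.2 in A/J. It was 33.6-fold lower in C57BL6/J than in C3H/HeJ and 30.5-fold higher in C3H/HeJ than in A/J on the log2(signal + 7) scale.

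H2-K1 1425336_x_at was brightest in C57BL6/J, with control signals of 3581.7, 4333.5 and 3847.4 there, 294.9, 415.3 and 438.0 in C3H/HeJ, and 748.9, 687.3 and 697.7 in A/J. The 3 strains did not overlap. C57BL6/J was higher than A/J by 2.45 ± 0.10 (5.47-fold, adjusted p = 3.76e-10) and higher than C3H/HeJ by 2.96 ± 0.10 (7.76-fold, adjusted p = 4.92e-11). C3H/HeJ minus A/J, strains that share k alleles at this end, was -0.50 ± 0.10 (adjusted p = 0.00875). H2-K1 1450534_x_at followed the same order between C57BL6/J and the other strains, at 1.21 ± 0.25 over A/J and 2.07 ± 0.25 over C3H/HeJ. H2-K1 1427746_x_at was lower in C3H/HeJ than in A/J, at -1.26 ± 0.19, and higher in C57BL6/J than in C3H/HeJ, at 1.01 ± 0.19. H2-Q5 1450582_at was dim throughout, with control signals of 1.4, 0.8 and 10.1 in C57BL6/J, 12.9, 32.5 and 26.5 in C3H/HeJ, and 27.5, 58.1 and 10.8 in A/J. C57BL6/J lay below the others there, by -1.70 ± 0.35 against A/J and -1.78 ± 0.35 against C3H/HeJ, with a mean C57BL6/J signal of 4.10 that is below the added 7. Over 31 settings these differences of H2-Q5 1450582_at ran from -2.84 to -0.77 and from -2.98 to -0.77, and the first did not pass when only the groups compared were fitted (adjusted p = 0.0611). The plot of heavy chain signals shows each array.

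**Figure D1:**
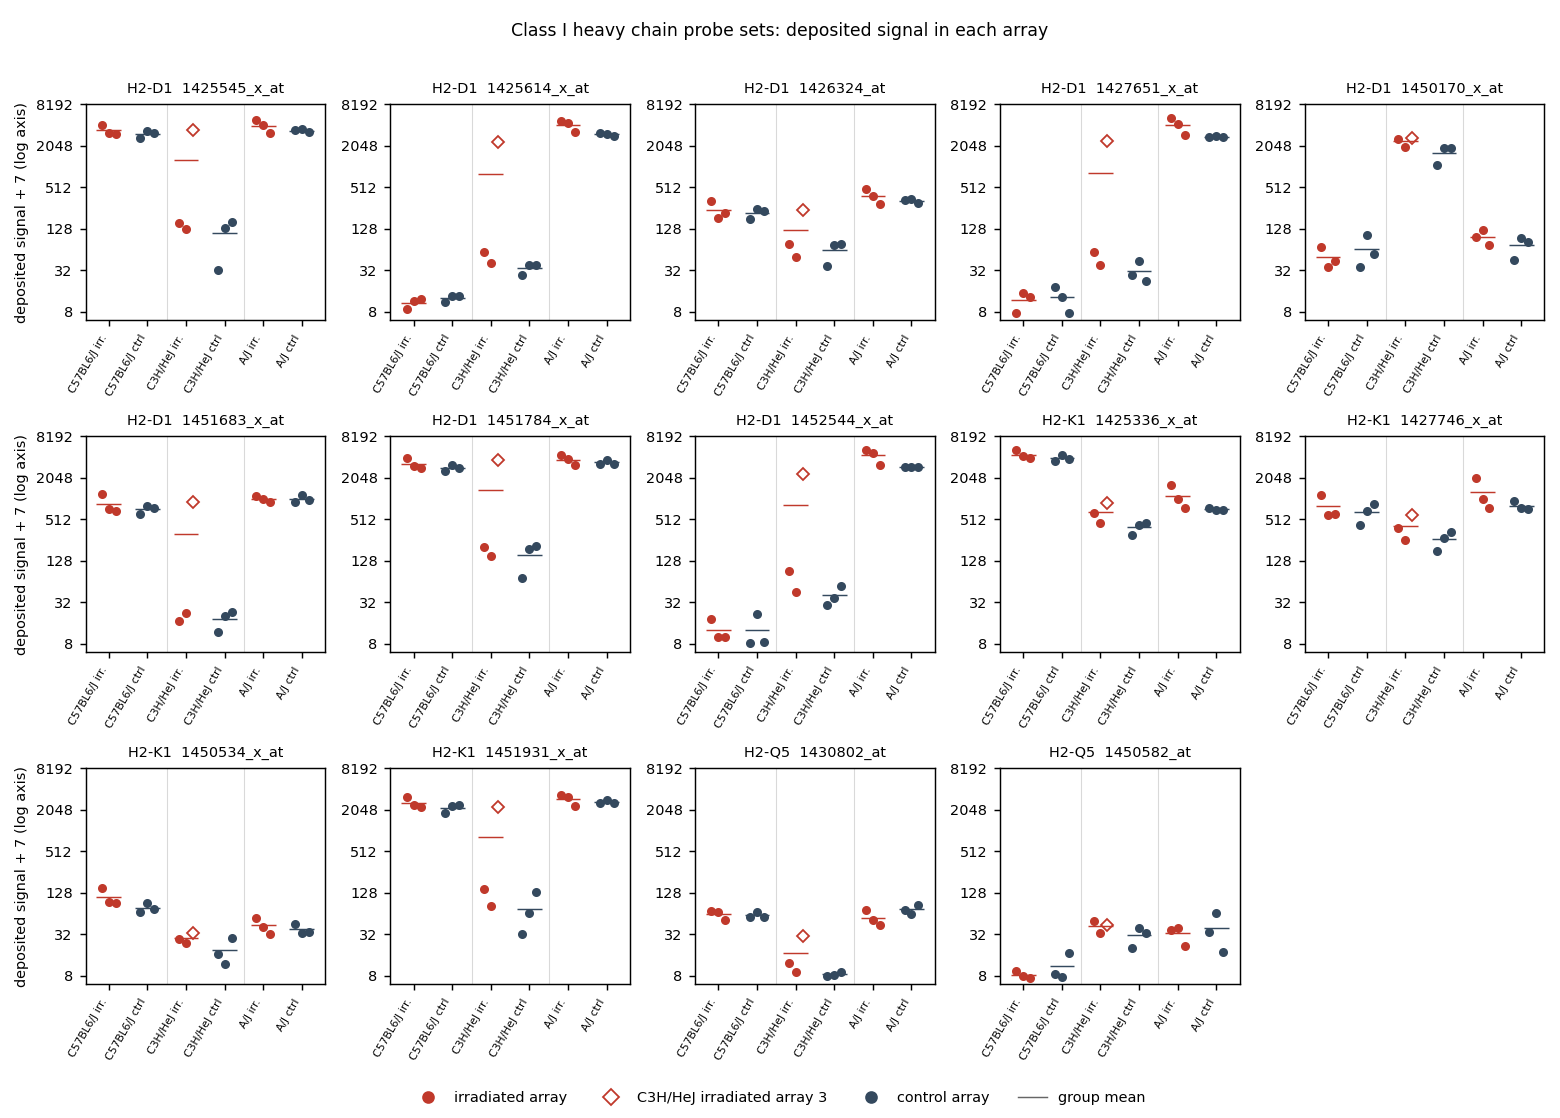
Deposited signal plus 7 (log axis) of the 14 kept heavy chain probe sets in each of 18 arrays, by strain and treatment (irr., irradiated, ctrl, control), with group means as lines. Open diamonds mark C3H/HeJ irradiated 3, which at 1425614_x_at (signal 2281.6) lay nearer to A/J than to its mates, though below all 6 A/J arrays, and with C3H/HeJ at 1450170_x_at (2679.6).

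The processing genes had no difference between untreated strains as large as the largest of the heavy chains. Psmb9, Psmb8 and Tap2 were lower in C57BL6/J than in A/J, Psmb9 and Tap2 also in C3H/HeJ than in A/J, and Tap1 was higher in C57BL6/J than in C3H/HeJ. Normalized log2 levels of Psmb9, a catalytic subunit of the immunoproteasome, were 8.38, 8.56 and 7.91 in C57BL6/J controls, 8.63, 8.68 and 8.89 in C3H/HeJ controls, and 9.28, 9.14 and 9.39 in A/J controls. No A/J array overlapped another strain. Psmb9 was lower in C57BL6/J than in A/J by -0.99 ± 0.14 (adjusted p = 0.000243) and lower in C3H/HeJ than in A/J by -0.54 ± 0.14 (adjusted p = 0.0444). The second difference passed in 14 of 32 settings and failed without C3H/HeJ irradiated 3, among others, with adjusted p up to 0.165. Psmb8, its partner subunit, was lower in C57BL6/J than in A/J by -0.58 ± 0.16 (adjusted p = 0.0275), a call made in 23 of 32 settings. Without the squamous arrays, which leaves C57BL6/J control 2 alone in its group, this difference was -0.21. For Psmb8, C3H/HeJ minus A/J, at -0.36 ± 0.16, did not pass. The transporter subunit Tap2 was lower than in A/J both in C57BL6/J, by -0.53 ± 0.10 (adjusted p = 0.00197), and in C3H/HeJ, by -0.44 ± 0.10 (adjusted p = 0.0136), and these calls were made in 30 and 26 of 32 settings. Tap1, the other subunit, had another order, with C57BL6/J higher than C3H/HeJ by 1.02 ± 0.16 (adjusted p = 0.000678). The remaining Tap1 differences were 0.48 ± 0.16 for C57BL6/J minus A/J and -0.54 ± 0.16 for C3H/HeJ minus A/J, and did not pass. Neither B2m nor Tapbp passed in any strain pair, with B2m differences between -0.26 and 0.14.

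Counted over the 22 probe sets, C57BL6/J minus A/J had 2 higher and 7 lower, where 10.1% of all 25735 probe sets tested were called, 5.50% higher and 4.60% lower. C57BL6/J minus C3H/HeJ had 10 higher and 2 lower, with 10.1% of all probe sets called, 5.63% higher and 4.46% lower. Without C3H/HeJ irradiated 3 it had 10 higher and 5 lower, with 10.2% of all called, 5.75% higher and 4.44% lower. C3H/HeJ minus A/J had 1 higher and 13 lower, with 4.36% of all called, 2.17% higher and 2.18% lower. Without that array it had 1 higher and 12 lower, with 4.66% of all called, 2.27% higher and 2.39% lower. The probe sets are not independent of each other, since several read the same heavy chain. The median difference over the members was -0.23, 0.15 and -0.70 in these 3 pairs, beside -0.03, -0.02 and -0.01 over all probe sets.

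In A/J, 5 of the 22 probe sets were lower in irradiated lungs and none was higher, where 25.2% of all probe sets passed (11.6% as higher and 13.6% as lower). They were those of the immunoproteasome subunits Psmb9 and Psmb8 and the transporter subunit Tap2, with 1 of the 2 of tapasin and 1 of the 2 of B2m. The transporter subunit Tap1 and the second tapasin probe set did not pass. Psmb9 had normalized log2 levels of 8.09, 8.14 and 8.31 in irradiated lungs, against 9.28, 9.14 and 9.39 in controls. The groups did not overlap, and the difference was -1.09 ± 0.14 (2.13-fold lower, limma adjusted p = 6.96e-05, 95% interval -1.40 to -0.79). Psmb8 had 8.63, 8.54 and 8.77 in irradiated lungs, against 9.20, 9.04 and 9.28 in controls. It was 1.44-fold lower, at -0.53 ± 0.16 (adjusted p = 0.0233), and did not pass when A/J irradiated 1 or 2 or A/J control 1 or 3 was left out. Tap2 had 7.16, 7.20 and 7.39 in irradiated lungs, against 7.72, 7.71 and 7.62 in controls. All irradiated arrays were below all controls, and the difference was -0.43 ± 0.10 (1.35-fold lower, adjusted p = 0.00412). Tap1 had 6.45, 6.42 and 6.73 in irradiated lungs, against 6.86, 6.86 and 6.98 in controls. Its difference of -0.37 ± 0.16 did not pass (adjusted p = 0.117), although Tap1 and Psmb9 start on either side of the interval printed above. Whether these 2 effects differ was not tested.

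The 2 Tapbp probe sets disagreed in A/J. Tapbp 1450378_at had 6.23, 6.73 and 6.88 in irradiated lungs, against 8.07, 8.04 and 7.72 in controls. It was lower by -1.33 ± 0.21 (2.51-fold, adjusted p = 0.00031), and its deposited signals did not overlap either, at 131.1, 147.0 and 104.9 in irradiated arrays against 265.3, 249.4 and 191.8 in controls. Tapbp 1421812_at, the brighter one, had 10.25, 10.16 and 10.16 in irradiated lungs, against 10.17, 10.40 and 10.33 in controls. Those groups overlapped and the difference was -0.11 ± 0.11 (95% interval -0.35 to 0.13). A tapasin change in A/J therefore rests on 1 of its 2 probe sets.

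B2m, the light chain of all class I molecules, had 11.48, 11.81 and 11.85 at 1452428_a_at in irradiated A/J lungs, against 12.05, 12.07 and 11.94 in controls. The difference was -0.31 ± 0.11 (adjusted p = 0.0463) and did not pass once C3H/HeJ irradiated 3 was left out (adjusted p = 0.0531). At 1449289_a_at it was -0.22 ± 0.09, which did not pass. B2m lay at the 99.4 to 99.9 percentile of every array. H2-Q5 1430802_at had 5.47, 5.31 and 5.55 in irradiated A/J lungs, against 6.07, 5.99 and 6.49 in controls. Its difference of -0.74 had an SE of 0.26 with all arrays (adjusted p = 0.0504) and of 0.18 without C3H/HeJ irradiated 3 (adjusted p = 0.00827). No H2-D1 or H2-K1 probe set passed in A/J with or without that array. Without it, the 8 of H2-D1 lay between -0.58 ± 0.26 (1451683_x_at) and 0.04 ± 0.33 (1450170_x_at), and the 4 of H2-K1 between -0.44 ± 0.28 (1451931_x_at) and -0.03 ± 0.11 (1425336_x_at). The 3 H2-D1 probe sets bright in A/J alone were at -0.11 ± 0.14 (1425614_x_at), -0.0015 ± 0.32 (1427651_x_at) and 0.0085 ± 0.32 (1452544_x_at).

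The 5 of 22 called in A/J is near the share called anywhere on the array. The median difference over the 22 was -0.31, beside 0.02 over all. When C3H/HeJ irradiated 3 was left out, 5 were again lower, with H2-Q5 1430802_at in and B2m out, and 25.0% of all were called. Without A/J irradiated 1, the array of low GAPDH ratio, 3 were lower and 21.4% of all were called. Psmb9 was then at -1.05 ± 0.16 (adjusted p = 0.000377), Tapbp 1450378_at at -1.13 ± 0.21 (adjusted p = 0.00165) and Tap2 at -0.39 ± 0.10 (adjusted p = 0.0157), while Psmb8 and B2m 1452428_a_at did not pass (adjusted p = 0.0549 and 0.186). How far these values depend on scaling is a limit of the A/J result. Without scaling, where all probe sets had a median shift of 0.46, none of the 22 passed, and B2m 1452428_a_at, Tap2 and Psmb8 were at 0.18, 0.10 and 0.070, each below that shift. With arrays centred on their medians (median shift 0.23), Tapbp 1450378_at, Psmb9 and H2-Q5 1430802_at passed as lower, at -1.08, -0.73 and -0.66. The split of all A/J calls moved as well, with 2981 higher and 3496 lower after quantile normalization, 3788 and 816 without scaling, and 6353 and 2493 after median centring.

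**Figure D2:**
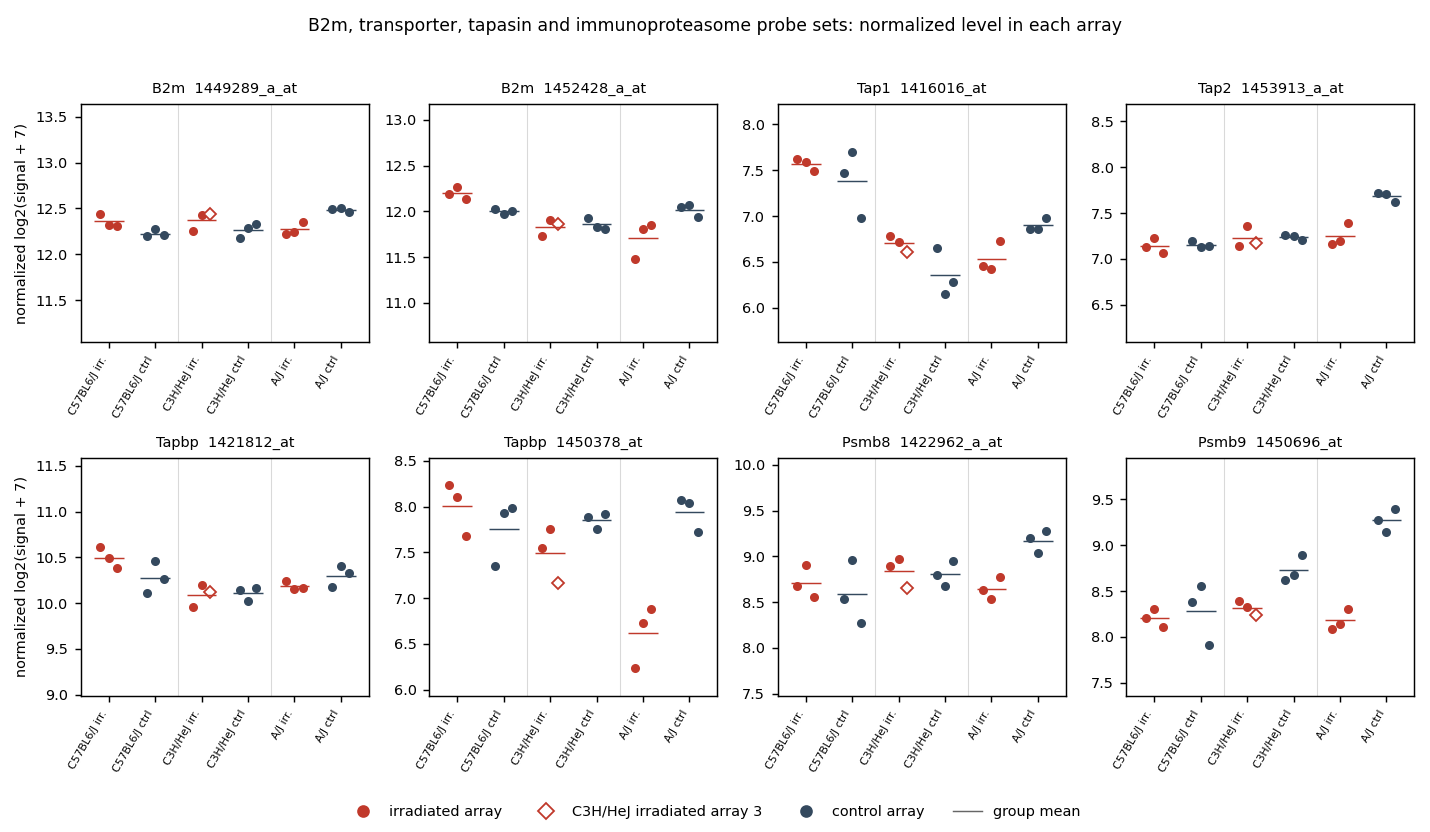
Normalized log2(signal + 7) level of B2m, Tap1, Tap2, Tapbp, Psmb8 and Psmb9 probe sets in each array, by strain and treatment, with group means as lines. In A/J the irradiated Psmb9 arrays lie at 8.09 to 8.31 and the controls at 9.14 to 9.39, while in C57BL6/J the 2 groups overlap.

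**Figure D3:**
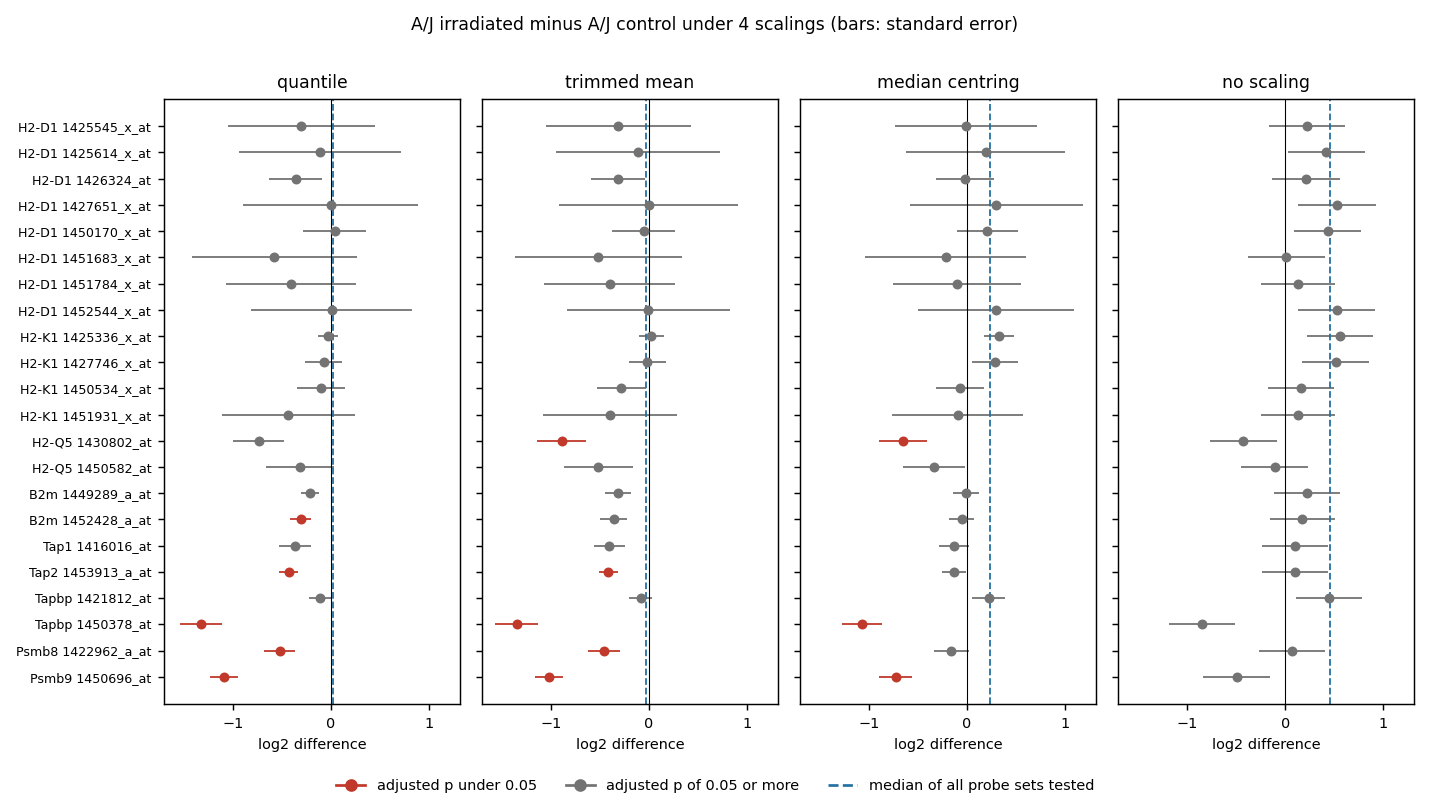
Irradiated minus control in A/J for each member probe set under 4 scalings, as log2 differences with standard errors, and the median of all probe sets tested as a dashed line. Tapbp 1450378_at and Psmb9 are the lowest of the immunoproteasome, transporter and tapasin probe sets in every panel, at -0.85 and -0.50 without scaling, where no member passed.

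In C57BL6/J no member passed the test of irradiation. Psmb9 had 8.21, 8.30 and 8.11 in irradiated lungs, against 8.38, 8.56 and 7.91 in controls. The groups overlapped and the difference was -0.08 ± 0.14 (95% interval -0.38 to 0.23). Tapbp 1450378_at had 8.23, 8.11 and 7.68 in irradiated lungs, against 7.36, 7.93 and 7.99 in controls, a difference of 0.25 ± 0.21 (95% interval -0.20 to 0.70). Tap2 stood at -0.01 ± 0.10 and Psmb8 at 0.12 ± 0.16. Both B2m probe sets and H2-K1 1450534_x_at were the 3 whose groups did not overlap, at 0.13 ± 0.09, 0.20 ± 0.11 and 0.42 ± 0.25, and none of them passed. Over all probe sets, 21.9% had groups that did not overlap. The limma fit thus called 0 of 22, where it called 2.92% of all probe sets, and none of the 22 had an unadjusted p under 0.05, against 16.7% of all. The member median was 0.12, beside -0.01 over all.

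In C3H/HeJ, too, the limma fit called 0 of 22, where it called 18.4% of all probe sets, and 12.8% without C3H/HeJ irradiated 3, again with 0 members. At an unadjusted p under 0.05, 6 members were higher and 1 lower, with 32.2% of all probe sets past that level. Without the array 0 were higher and 1 lower, with 27.4% of all past it. The H2-D1 and H2-K1 values turned on the array that went against its label. H2-D1 1427651_x_at was at 2.05 ± 0.90 with it and 0.38 ± 0.36 without it, and H2-K1 1451931_x_at at 1.64 ± 0.68 with it and 0.40 ± 0.31 without it. H2-Q5 1430802_at was at 0.70 ± 0.26 with it and 0.31 ± 0.20 without it. Psmb9 had 8.39, 8.32 and 8.24 in irradiated lungs, against 8.63, 8.68 and 8.89 in controls. The groups did not overlap, and the difference of -0.41 ± 0.14 did not pass (adjusted p = 0.0585, and 0.157 without the array). Without the 3 squamous arrays it passed as lower (adjusted p = 0.0251). Tap1 had 6.78, 6.71 and 6.61 in irradiated lungs, against 6.65, 6.15 and 6.28 in controls, a difference of 0.34 ± 0.16 that did not pass either. Leaving out C3H/HeJ irradiated 2 instead gave 5 higher calls among the members, with 14.2% of all probe sets called. Leaving out C3H/HeJ irradiated 1 or C3H/HeJ control 3 gave 1 each, with 13.4% and 14.6% of all called. These fits all keep C3H/HeJ irradiated 3, and the fit without that array called 0 members.

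**Figure D4:**
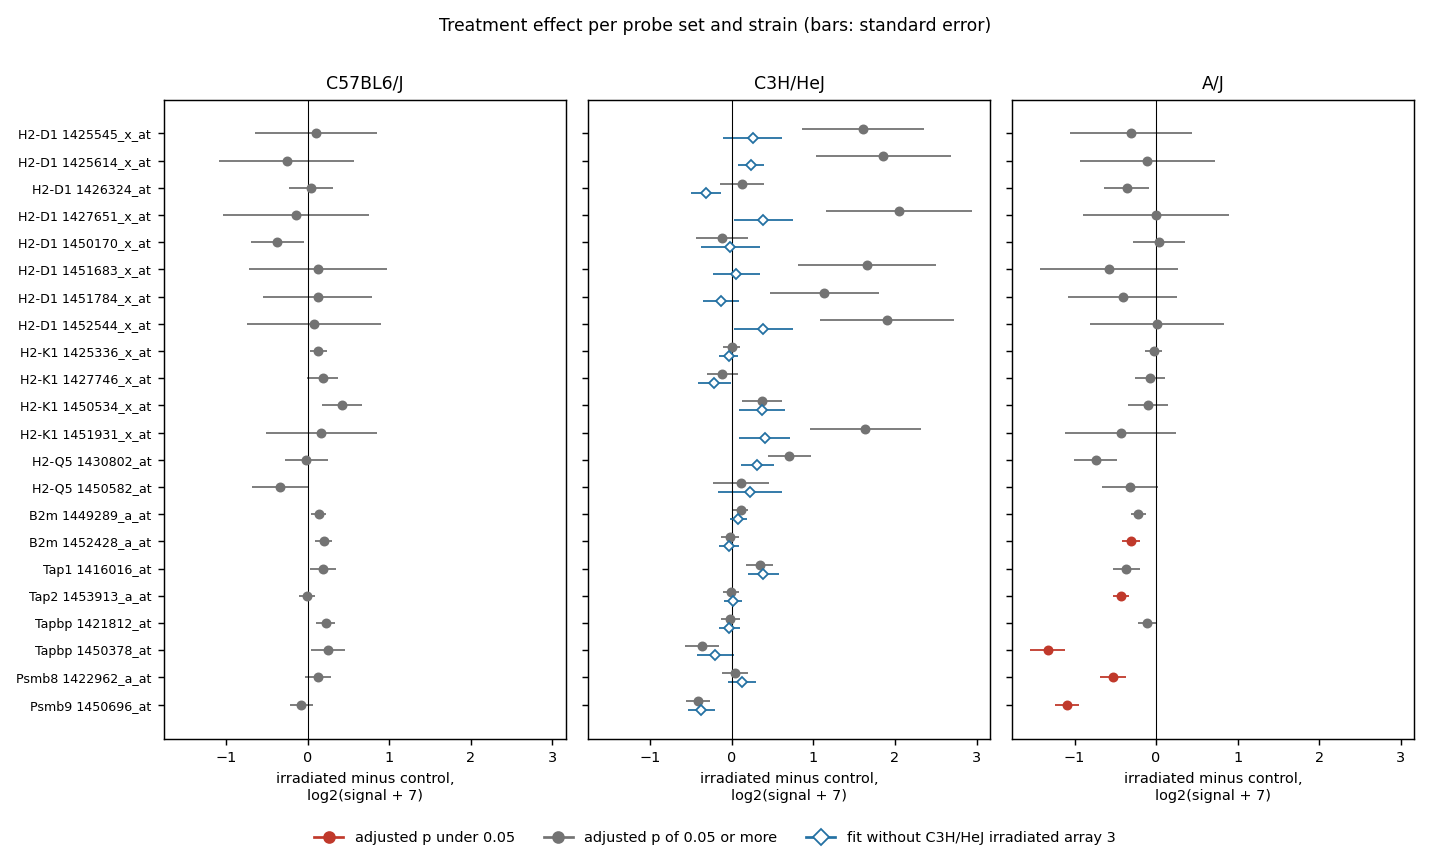
Irradiated minus control, as a log2 difference with its standard error, for each of the 22 member probe sets in C57BL6/J, C3H/HeJ and A/J. Red marks an adjusted p under 0.05, seen in A/J alone, and open diamonds in the C3H/HeJ panel show the fit without C3H/HeJ irradiated 3, where H2-D1 1427651_x_at is at 0.38 and not 2.05.

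The test of the difference between strains' effects called 2 members. Strain and time since exposure cannot be told apart in this test. The effect in C57BL6/J minus that in A/J was 1.58 ± 0.30 for Tapbp 1450378_at (adjusted p = 0.00487) and 1.01 ± 0.20 for Psmb9 (adjusted p = 0.00719). Of all probe sets, 8.33% were called in this comparison, 5.81% higher and 2.52% lower. The 2 of 22 is near the share over all probe sets. The fit without C3H/HeJ irradiated 3 called 2 members as well, and 8.54% of all. Without A/J irradiated 1 the Tapbp 1450378_at difference was 1.38 ± 0.29 (adjusted p = 0.0102) and that of Psmb9 0.97 ± 0.22 (adjusted p = 0.0151). B2m 1452428_a_at stood at 0.50 ± 0.15 (adjusted p = 0.0518), Tap2 at 0.42 ± 0.14 (adjusted p = 0.0723) and Psmb8 at 0.65 ± 0.22 (adjusted p = 0.0898), and did not pass. Without the 3 arrays of high squamous keratin signal, which leaves C57BL6/J control 2 alone in its group, Psmb9 was at 0.80 and Tapbp 1450378_at at 1.54. Neither of the other comparisons of effects called a member: C57BL6/J minus C3H/HeJ had 0 of 22 (0.929% of all probe sets called, no member with an unadjusted p under 0.05), and C3H/HeJ minus A/J had 0 of 22 (1.37% of all called, 8 members with an unadjusted p under 0.05, all higher). Leaving out C3H/HeJ irradiated 3, both again called 0 of 22, with 0.730% and 2.44% of all called, and the members with an unadjusted p under 0.05 were 1 lower in C57BL6/J minus C3H/HeJ and 6 higher in C3H/HeJ minus A/J. H2-K1 1451931_x_at was at 2.07 ± 0.96 in C3H/HeJ minus A/J with that array and 0.84 ± 0.42 without it, and H2-Q5 1430802_at at 1.44 ± 0.37 and 1.05 ± 0.27 (adjusted p = 0.0633 and 0.0595). In C3H/HeJ minus A/J, Psmb9 stood at 0.68 ± 0.20 (adjusted p = 0.101) and Tapbp 1450378_at at 0.96 ± 0.30 (adjusted p = 0.11). Without the squamous arrays and C3H/HeJ irradiated 3, both passed there, at 0.78 (adjusted p = 0.0496) and 1.26 (adjusted p = 0.0405). The A/J arrays enter both comparisons that involve A/J, and the A/J controls also enter the untreated strain differences that involve A/J.

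Other genes of the pathway were taken from lists, in which 1 probe set stands for each gene and each count is of irradiated minus control. Over all 12408 genes represented this way, 14.7% were called higher and 8.69% lower in A/J, 2.20% and 1.57% in C57BL6/J, and 11.7% and 9.16% in C3H/HeJ. These shares are the background of every list count that follows. Of 18 other class I heavy chains, 4 could be measured (H2-Q10, H2-T24, H2-T3 and H2-M3) and none passed in any strain. Psmb10, the third catalytic subunit of the immunoproteasome, was lower in A/J, at -0.55 ± 0.16, and stood at -0.30 ± 0.16 in C57BL6/J and -0.01 ± 0.16 in C3H/HeJ. In the same list of 5 measured genes Psme4, a proteasome activator, was higher in A/J, at 0.46 ± 0.11, and in C3H/HeJ, at 0.39 ± 0.11. The interferon-induced activator subunit Psme1 was at 0.02 ± 0.10 in A/J. Of 14 subunits of the standard 20S proteasome, Psmb5 was higher in A/J and C3H/HeJ, at 0.30 ± 0.10 and 0.39 ± 0.10, and Psma4 was lower in A/J, at -0.49 ± 0.14. Of 9 measured chaperones and enzymes of peptide loading, Tapbpl, the tapasin-related editor, was lower in A/J, at -0.47 ± 0.16, and Uggt1, which checks glycoprotein folding, was higher in C3H/HeJ, at 0.46 ± 0.12. No gene of these 4 lists passed in C57BL6/J.

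Regulators of class I transcription split. In A/J, 3 of 22 measured were higher and 4 lower. Nlrc5, the class I transactivator, had 6.19, 6.06 and 6.39 in irradiated A/J lungs, against 6.61, 6.74 and 6.89 in controls. It was lower by -0.53 ± 0.18, and its effect in C57BL6/J minus that in A/J was 0.97 ± 0.25 (adjusted p = 0.0248). Irf1, an interferon-induced activator of Psmb9 and Tap1, had 8.87, 8.39 and 8.63 in irradiated A/J lungs, against 9.29, 9.28 and 9.25 in controls. It was lower in A/J, at -0.65 ± 0.13, and in C3H/HeJ, at -0.48 ± 0.13. Nfyb, a CCAAT-binding subunit, was lower in A/J, at -0.86 ± 0.17, while Socs3, a feedback inhibitor of cytokine signalling, was higher in A/J, at 0.77 ± 0.19, and in C3H/HeJ, at 1.87 ± 0.19. C3H/HeJ had 4 higher and 2 lower, among them Relb at 0.83 ± 0.16 and Rfxank at -0.76 ± 0.21. C57BL6/J had 1 higher, Irf8 at 0.45 ± 0.11.

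Of 10 measured targets of interferon gamma, 3 were lower in A/J and none higher: the GTPases Igtp at -1.41 ± 0.19, Gbp7 at -1.15 ± 0.23 and Gbp2 at -0.65 ± 0.16. The chemokine Cxcl9 was the 1 higher gene in C57BL6/J, at 2.18 ± 0.39, and 4 were higher in C3H/HeJ, with Cxcl9 at 1.99 ± 0.39, Cxcl10 at 1.81 ± 0.40, Iigp1 at 1.01 ± 0.28 and Icam1 at 0.60 ± 0.13. Cxcl9 stood at 0.91 ± 0.39 in A/J and did not pass. Igtp had 7.35, 7.30 and 7.78 in irradiated A/J lungs, against 8.68, 8.85 and 9.12 in controls, with no overlap. Its effect in C57BL6/J minus that in A/J was 1.31 ± 0.27 (adjusted p = 0.0078). The list's median difference was -0.42 in A/J, 0.08 in C57BL6/J and 0.30 in C3H/HeJ, beside 0.09, -0.01 and 0.01 over all genes. Between controls the list's median was -0.40 in C57BL6/J minus A/J and -0.63 in C3H/HeJ minus A/J, beside -0.01 and 0.01 over all genes.

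Of the class I-like molecules, Procr, the endothelial protein C receptor, was higher in A/J and C57BL6/J, at 1.03 ± 0.22 and 0.87 ± 0.22, with Azgp1 also higher in A/J, at 0.84 ± 0.20, and Mr1 in C57BL6/J, at 0.50 ± 0.11. None of the 6 passed in C3H/HeJ. Pirb, an inhibitory receptor of myeloid cells that binds class I molecules, was the 1 of 5 measured class I receptors that passed, and was higher in all strains, at 1.15 ± 0.26 in C57BL6/J, 1.54 ± 0.26 in C3H/HeJ and 1.19 ± 0.26 in A/J.

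Markers of cells that carry or read class I molecules moved with irradiation too, and in bulk tissue fewer cells of a type and less RNA per cell cannot be told apart. In A/J, 7 of 15 T and natural killer cell markers were lower and none higher (8.69% of all genes were lower there), with Gzma at -2.13 ± 0.40, Prf1 at -1.46 ± 0.22, Ncr1 at -1.15 ± 0.21 and Cd2 at -0.85 ± 0.19. Their mean normalized log2 level was 5.31 to 5.62 in irradiated A/J arrays, against 6.01 to 6.09 in controls. Their summed deposited signal, which is not scaled for array brightness, was 569.2 to 1249.7 against 959.2 to 1149.3. In C57BL6/J 1 was higher (Cd28, 0.82 ± 0.19), and in C3H/HeJ 2 were higher and 2 lower, with Gzma at -1.44 ± 0.40. Between controls the median of these 15 markers was -0.31 in C57BL6/J minus A/J and -0.55 in C3H/HeJ minus A/J. Of 9 B and plasma cell markers, 3 were lower in A/J, with Ms4a1 at -1.93 ± 0.31, and 2 higher, with Jchain at 1.72 ± 0.40. In C57BL6/J 4 were higher, with Jchain at 2.58 ± 0.40, and in C3H/HeJ none passed. Their part in the member values was not tested.

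Of 14 macrophage markers, 2 were higher in C57BL6/J, 11 in C3H/HeJ and 10 in A/J (2.20%, 11.7% and 14.7% of all genes), with C1qc at 1.60 ± 0.29, 2.17 ± 0.29 and 1.69 ± 0.29, and none was lower. Their mean normalized log2 level was 8.14 to 9.21 in irradiated C57BL6/J arrays against 7.98 to 8.13 in controls. It was 9.10 to 9.38 against 7.95 to 8.05 in C3H/HeJ, and 8.21 to 9.38 against 7.96 to 7.99 in A/J. The rise was uneven in A/J, with 8.21 in A/J irradiated 1 against 9.18 and 9.38 in its mates. Of 14 endothelial markers, 4 were lower in C57BL6/J, 8 in C3H/HeJ and 6 in A/J, where 2 were higher (1.57%, 9.16% and 8.69% of all genes were lower), with Tek at -1.68 ± 0.18, -2.73 ± 0.18 and -2.14 ± 0.18. Of 11 alveolar epithelial markers, Abca3 was lower in C3H/HeJ, at -0.67 ± 0.15, and no other passed. Among 8 squamous markers, Krt78 was lower in C57BL6/J (-2.75 ± 0.56) and Sprr1a higher in C3H/HeJ (1.82 ± 0.56). The mean normalized log2 level of these 8 was 8.42 and 8.39 in C57BL6/J control 1 and 3, the squamous arrays. It was 4.53 in C57BL6/J control 2 and 4.05 to 4.12 in irradiated C57BL6/J arrays. Of 3 measured thymus and lymphoid tissue genes, Cxcl13 was higher in C57BL6/J, C3H/HeJ and A/J, at 1.62 ± 0.39, 1.31 ± 0.39 and 1.59 ± 0.39, and Cr2 was lower in A/J, at -1.02 ± 0.34. Whether any of these goes with the member values was not tested.

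The 6 group means of Tap1, Tap2, Tapbp, Psmb8 and Psmb9, averaged and centred, were compared with those of 12399 other genes by root mean square distance. The nearest were Zkscan5 at 0.046, Kat8 at 0.0509, Mzt1 at 0.0552, Poc1b at 0.0615, Lemd3 at 0.0631 and Ccdc47 at 0.0634, beside a median of 0.27 over all genes. Nearest to Tap1 alone were Klrd1 at 0.0572, Nudt16 at 0.102 and Scoc at 0.13, beside a median of 0.499. All of these points come from the same 18 arrays.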

How the data were processed

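Lung RNA of 18 samples was labelled with biotin and hybridised to single-colour arrays, and the deposited values are 1 linear signal intensity per probe set and array. The submitters' processing notes name MAS5, with no version. Background handling and the scaling target are not given in the sources used here. Arrays differed in brightness (trimmed mean over all but 2% at each end, 46.5 to 176), so log2(signal + 7) was quantile normalized. The pseudocount understates changes of dim probe sets. Precision is limited by 3 arrays per group.

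The 64 control probe sets were left out. Probe sets brighter than the median of all values in 3 or more arrays were kept, 25735 of 45101. Gene symbols are those of GEO's platform annotation, brought up to date by Entrez identifier. It covers 35890 probe sets, 34958 with 1 gene and 932 with several, and 9211 others are unnamed here. For the lists, a gene was represented by its kept probe set of highest mean (12408 genes).

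Groups follow the strain and treatment labels. limma 3.58.1 in R 4.3.3 fitted 6 group means on all 18 arrays with 12 residual degrees of freedom, and contrasts gave irradiated minus control in each strain, differences of these effects, and differences between untreated strains. Each test was two-sided, p-values were adjusted by Benjamini-Hochberg over all kept probe sets, the threshold was 0.05, and errors of differences are standard errors. Adjusted p-values come from this fit unless another is named beside them. The labels do not say that the controls of a strain were separate mice, so p-values there may measure technical spread. Replicate numbers did not pair arrays across groups: correlations of deviations from group means were -0.086 to 0.042.

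The members, lists and tests were chosen with earlier results of these data known. All members are named whatever their result. Of the other lists, up to 4 called genes with the largest change are named (Psme1 and other values that did not pass were added after they were seen). Nearest genes are those of smallest root mean square distance between centred group means. Alternatives covered scaling, pseudocount, filter, samples fitted, replicate block, variance prior, array weights, 1 probe set per gene and each array left out. A fit without C3H/HeJ irradiated 3 and the squamous arrays was chosen after seeing the data. Promoters are RefSeq's, GRCm38.p6. Sequences under the array's probes were not used here.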

Additional observations from a re-analysis of the deposited data

Results flagged for a closer look

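Differences between the strains' responses passed their own test at 2 of the 22 probe sets, beside 8.33% of all probe sets in the same comparison of C57BL6/J with A/J. The 2 of 22 is near the share over all probe sets. For Tapbp 1450378_at the effect in C57BL6/J exceeded that in A/J by 1.58 ± 0.30, with effects of 0.25 ± 0.21 in C57BL6/J and -1.33 ± 0.21 in A/J. Its second probe set, 1421812_at, stood at 0.33 ± 0.16 in the same comparison and did not pass (limma adjusted p = 0.237). For Psmb9 the effect in C57BL6/J exceeded that in A/J by 1.01 ± 0.20, with effects of -0.08 ± 0.14 in C57BL6/J and -1.09 ± 0.14 in A/J. Mean normalized log2 levels of Psmb9 were 8.18, 8.20 and 8.32 in irradiated A/J, C57BL6/J and C3H/HeJ, against 9.27, 8.28 and 8.73 in controls. For Tapbp 1450378_at the levels were 6.61, 8.01 and 7.49, against 7.94, 7.76 and 7.85. The A/J controls enter this comparison, the A/J effect and the untreated strain differences that involve A/J. In A/J, all 3 irradiated arrays were below all 3 controls at Tapbp 1450378_at and Psmb9. The A/J irradiated arrays are also those of low actin 5' to 3' ratio (0.497 ± 0.074 against 0.735 ± 0.006 in A/J controls, SD, n = 3), and the part of this in either value was not tested. Without A/J irradiated 1, the array of lowest ratio, the comparison gave 1.38 ± 0.29 for Tapbp 1450378_at and 0.97 ± 0.22 for Psmb9. Without the 3 squamous arrays, where C57BL6/J control 2 alone stands for its group, the Psmb9 difference was 0.80. With median centring Psmb9 did not pass (0.67, adjusted p = 0.0794), and without scaling neither probe set did (Tapbp 1450378_at 1.17, adjusted p = 0.248, Psmb9 0.50, adjusted p = 0.602).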

How the results depend on the processing

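Over the alternatives, no member call changed sign except without scaling in A/J, where B2m 1452428_a_at was at 0.18, Tap2 at 0.10 and Psmb8 at 0.0696. All probe sets had a median shift of 0.46 there, and relative to it these 3 were at -0.29, -0.36 and -0.39. The number of members lower in A/J (5) was 0 without scaling, 3 with median centring, 3 without the filter, where more probe sets share the adjustment, and 8 with array weights. Members higher in C3H/HeJ (0) numbered 8 without scaling, 1 with median centring and 1 with a pseudocount of 1. Members lower there (0) numbered 1 with a pseudocount of 32, 1 with an intensity trend and 1 without the 3 squamous arrays. Higher effects in C57BL6/J than in A/J (2) numbered 0 without scaling, 1 with median centring, 4 with a trend and 4 with array weights. Without scaling, 5 effects were lower in C57BL6/J than in C3H/HeJ and 1 was higher in C3H/HeJ than in A/J. The comparison of C3H/HeJ with A/J effects had 3 higher with array weights and 2 without the squamous arrays and C3H/HeJ irradiated 3. Between controls without scaling, C57BL6/J minus A/J had 1 higher (2 before) and C57BL6/J minus C3H/HeJ 5 lower (2 before), or 4 with only the groups compared. The cause of these moves was not tested.

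Leaving out 1 array at a time gave 3 to 5 members lower in A/J (3 without A/J irradiated 1, A/J control 1 or A/J control 3). In C3H/HeJ it gave 0 to 5 higher (5 without C3H/HeJ irradiated 2, with C3H/HeJ irradiated 3 kept) and 0 to 1 lower (1 without C57BL6/J control 2 or 3). It gave 2 to 4 higher effects in C57BL6/J than in A/J (4 without A/J irradiated 3), and 2 to 5 lower in C57BL6/J than in C3H/HeJ controls (5 without C3H/HeJ irradiated 3). It gave 2 to 3 higher and 6 to 7 lower in C57BL6/J than in A/J controls, and 11 to 14 lower in C3H/HeJ than in A/J controls. With the replicate number as a block, 4 members were lower in A/J, B2m having lost its call (-0.31, adjusted p = 0.0614), and the fit called 6186, 606 and 4385 of all probe sets in A/J, C57BL6/J and C3H/HeJ, against 6477, 751 and 4728. The samples share only a number. Of 18 arrays, 6 matched best outside their group with an array of the same number. C3H/HeJ calls over all probe sets split 2487 higher to 2241 lower, 5562 to 143 without scaling and 4480 to 959 with median centring. Over all probe sets, irradiation in C57BL6/J called 751, against 311 without scaling, 406 with median centring, 342 without the filter and 115 with only the groups compared. Effects in C57BL6/J minus A/J called 2143, against 548 without scaling and 1355 without the filter. Effects in C57BL6/J minus C3H/HeJ called 239, against 475 with a pseudocount of 32, 424 with a trend, 492 with array weights and 101 without the filter. Effects in C3H/HeJ minus A/J called 353, against 583, 615, 1214 and 107 in the same order, 168 without scaling and 183 with only the groups compared. Without the squamous arrays and C3H/HeJ irradiated 3 they called 555. Controls called 2601, 2597 and 1121 (C57BL6/J minus A/J, C57BL6/J minus C3H/HeJ, C3H/HeJ minus A/J), against 899, 1020 and 649 without scaling, and C57BL6/J minus C3H/HeJ 1686 with median centring. Counts of calls that use C57BL6/J controls are not given for fits without the squamous arrays, where C57BL6/J control 2 alone stands for that group. A separate fit with 1 probe set per gene, its p-values adjusted over those 12408 alone, called 2979 in A/J and 2916 in C3H/HeJ. There the A/J values of Tap2, Psmb8 and Psmb9 still passed.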
